A study of Mus musculus with 6 samples.

Results

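The glutathione, thioredoxin and antioxidant genes described here are the genes that make, use or recycle glutathione, that carry electrons through thioredoxin and peroxiredoxin, or that remove superoxide, peroxide, free heme and reactive metals. They were taken by symbol: glutathione transferases of the a, m, p, t, o and z classes, glutathione peroxidases, peroxiredoxins, superoxide dismutases, thioredoxins, thioredoxin reductases and 14 named genes from Nfe2l2 and Keap1 to Mt1, Mt2 and Cygb. A gene counted only if a row of the array table carried its symbol and no other, and the row of highest mean was kept where a gene had several. This gave 53 genes of the 19938 with such a row, in a table of 35556 rows. The rule applied no cut on measured differences between the genotypes, but the genes were chosen with earlier results of these data known. Among the genes is Cygb, taken by name, which the study had already listed as overexpressed in UVB-exposed Cbl-b-/- skin.

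RNA came from dorsal skin of 3 Cbl-b-/- and 3 wild-type (WT) BL6 mice, matched for sex and age, shaved 1 day before the procedure and killed 24 h after 1 exposure to 80 mJ/cm2 of UVB. Each mouse gave 1 array (Affymetrix Mouse Gene 1.0 ST), and values are log2 expression after RMA, the standard background correction and summary for such arrays. Cbl-b, an E3 ubiquitin ligase that restrains immune activation, is absent from every cell of the Cbl-b-/- mice. All 6 mice were irradiated and no nonirradiated array was analysed here, so each difference is one of genotype in irradiated skin and not a response to UVB.

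UVB light produces reactive oxygen species in skin, and the cells answer through Nrf2 (gene Nfe2l2), a transcription factor that Keap1 holds back until oxidants or electrophiles modify it. Released Nrf2 binds the antioxidant response element in front of genes for glutathione synthesis, thioredoxin reductase, heme oxygenase and quinone reductase. Superoxide dismutases turn superoxide into hydrogen peroxide, which catalase, glutathione peroxidases and peroxiredoxins then remove, while metallothioneins bind zinc and copper and respond to metals through their own promoter element.

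To show which members hold the core of the element that Nrf2 reads near their start, TGACNNNGC was searched on both strands of the RefSeq promoters of mouse build GRCm38.p6. The window ran from 250 bases before to 50 bases after each start, and elements further away were not searched. Of the 53 members, 45 had an entry; Cygb, Gclc, Gsr, Gsta4, Gstt2, Hmox1, Prdx6-ps2 and Sod3 had none. The core stood in 10 of the 45 (22.2%) and in 14% of all 27025 genes in the promoter table. The matches that lie wholly before the start are printed 5′ to 3′ on the strand of the gene, with 10 bases on either side and the core, read on either strand, in capitals.

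Nfe2l2 (chr2:75704885-75704913, minus strand): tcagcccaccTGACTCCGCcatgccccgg
Gclm (chr3:122245413-122245441, plus strand): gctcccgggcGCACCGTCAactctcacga
Txnrd1 (chr10:82859104-82859132, plus strand): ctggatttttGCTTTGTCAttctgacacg
Prdx1 (chr4:116685456-116685484, plus strand): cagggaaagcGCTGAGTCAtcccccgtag
Sod1 (chr16:90220696-90220724, plus strand): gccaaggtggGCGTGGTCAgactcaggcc
Gsta3 (chr1:21240454-21240482, plus strand): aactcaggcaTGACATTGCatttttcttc
Gstm5 (chr3:107895802-107895830, plus strand): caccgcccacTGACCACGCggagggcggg
Gstm7 (chr3:107931725-107931753, minus strand): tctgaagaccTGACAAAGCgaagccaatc
Mt2 (chr8:94172529-94172557, plus strand): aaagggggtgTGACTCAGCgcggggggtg

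The Mt2 and Prdx1 cores also contain an AP-1 site (TGACTCA or its complement TGAGTCA), and the searches overlap there. AP-1 sites were present in 6 of the 45 members (13.3%) and in 5.95% of all genes. The metal response element core, TGCACNC or TGCGCNC on either strand, was present in 13 of the 45 (28.9%) and in 28.2% of all genes. Because Mt2 and its neighbour Mt1 were both lower in Cbl-b-/- skin, as described further on, the 250 bases before the Mt2 start are shown with the metal response element cores in capitals.

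Mt2 (chr8:94172368-94172617, plus strand): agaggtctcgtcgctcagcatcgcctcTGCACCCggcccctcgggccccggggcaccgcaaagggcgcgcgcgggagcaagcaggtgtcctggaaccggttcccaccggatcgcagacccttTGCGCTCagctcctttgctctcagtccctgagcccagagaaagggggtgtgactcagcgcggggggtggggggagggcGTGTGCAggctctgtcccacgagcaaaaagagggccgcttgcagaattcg

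This stretch held 3 metal response element cores and the whole window searched, which runs 50 bases past the start, held 4, a number reached or passed by 0.588% of all genes. These matches are letters only and were not tested for binding in this skin.

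The deletion itself was visible on every array. Cblb read 8.61, 8.69 and 8.61 in the Cbl-b-/- mice against 9.90, 9.66 and 9.72 in WT, a difference of -1.12 ± 0.09 (log2, SE). Its adjusted limma p was 0.078, so Cblb itself missed 0.05 after adjustment. The Cbl-b-/- values still lay above the medians of those arrays, which were 6.31 to 6.34. Correlations between arrays over all rows lay between 0.98 and 0.993. Marker genes of other cell types set 2 arrays apart. The median of 14 neutrophil markers was 8.77 in Cbl-b-/- replicate 2 and between 6.03 and 7.83 on the other 5 arrays, and the median of 24 hair follicle markers was 9.23 in WT replicate 3 and between 5.46 and 7.35 elsewhere. In whole skin, fewer cells of a type and less RNA per cell cannot be told apart.

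Hmox1 and Cygb were higher in Cbl-b-/- mice, and the mitochondrial pair Sod2 and Prdx3 and the metallothionein gene Mt1 were lower. The changes were small, at 1.54-fold for Hmox1, 1.53-fold for Cygb, 1.38-fold for Sod2 and 1.19-fold for both Prdx3 and Mt1. The differences of 45 of the 53 genes (84.9%) stayed under 1.2-fold in either direction, as did those of 87.4% of all rows and 91.1% of rows with 1 symbol. The median log2 fold change over the 53 was 0.0055, with 27 genes above 0 and 26 below, beside a median of 0.0204 over all rows. Of all rows, 19834 were above 0 and 15722 below.

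The thresholds of the study were an unadjusted p below 0.05 and a 1.5-fold change, applied here with limma. By them, 2 of the 53 were higher (0.276% of all rows were) and 0 were lower (0.945% of all rows). Cygb was among these 2, and the study had already reported it as higher from these arrays. The counts of higher members are therefore not independent of the choice of genes. At an unadjusted limma p below 0.05 alone, again 2 of the 53 were higher, a share near the 3.68% of all rows, and 3 were lower, where 2.87% of all rows were. Members could come only from rows with 1 symbol, of which 0.216% were higher and 0.28% lower by both thresholds, and 3.72% higher and 1.63% lower by p alone. All 3 Cbl-b-/- values lay above all 3 WT values for 4 genes (8.66% of all rows) and below them for 4 genes (4.89% of all rows), beside 9.5% and 4.11% of rows with 1 symbol. After adjustment over all rows no member passed 0.05 in limma, a level that 0.00281% of all rows reached. The per-row test that the methods name gave 4 members an unadjusted p below 0.05, against 6.98% of all rows. With 3 mice per genotype an exact two-sided permutation test cannot give a p below 0.1, which was its value for each of these 8 genes. The plot of all 53 fold changes shows how most of them sit near 0.

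**Figure D1:**
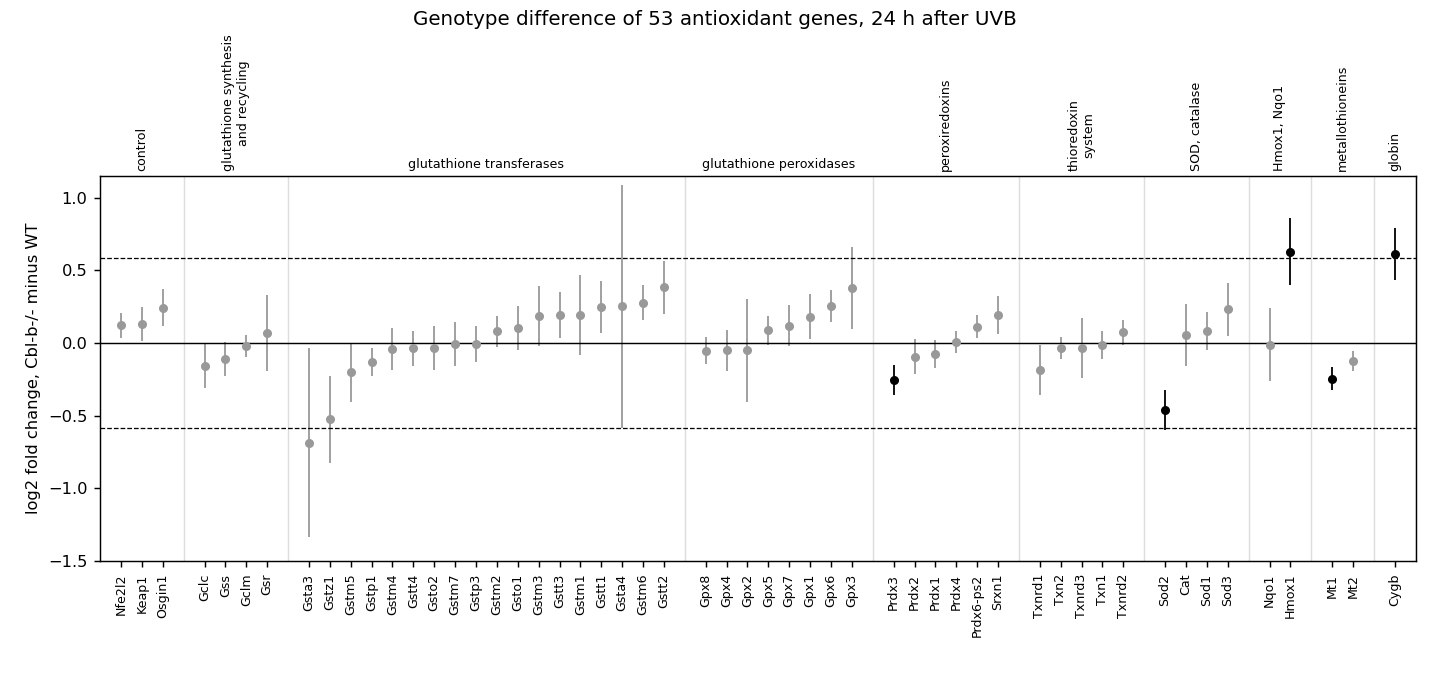
Log2 fold change (Cbl-b-/- minus WT, vertical axis) of each of the 53 genes, grouped by role along the horizontal axis, with the standard error from limma as bars and 3 mice per genotype. Black points are the 5 genes with an unadjusted p below 0.05, grey points the other 48, and dashed lines mark 1.5-fold; Hmox1 and Cygb lie just past the upper line, while Gsta3 passes the lower line with a standard error of 0.65.

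Heme oxygenase is the enzyme that breaks free heme down to biliverdin, iron and carbon monoxide. Hmox1 read 11.09, 10.94 and 10.89 in Cbl-b-/- skin and 10.88, 10.17 and 9.98 in WT skin. The lowest Cbl-b-/- mouse and the highest WT mouse were almost level, and the WT mice were spread more widely. The means were 10.97 ± 0.10 and 10.35 ± 0.48 (SD, n = 3 each), and the difference was 0.63 ± 0.23 (SE) with a limma p of 0.0322 and an adjusted p of 0.749. The per-row test of the methods, which does not share the spread across genes, gave Hmox1 a p of 0.0901 in 3 mice a group and so no call at 0.05 (an F test, not a permutation). Without WT replicate 1 the difference was 0.90, and it was between 0.44 and 0.67 when any other array was left out. In 5 of these 6 cases, those other than the removal of WT replicate 1, the limma p passed above 0.05.

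Slc48a1, which moves heme out of lysosomes, was added after its values were seen. It differed by 0.25 ± 0.11 (log2, SE) without overlap, but missed the threshold with an unadjusted limma p of 0.0695. Hmox2, Blvra, Blvrb, Fth1 and Ftl1, also of heme and iron handling, differed by 0.03, -0.11, 0.20, -0.04 and 0.14. All of these overlapped between genotypes. Bach1, a repressor that competes with Nrf2 at heme-responsive genes such as Hmox1, was lower in Cbl-b-/- skin. It read 9.05, 9.29 and 8.95 against 9.27, 9.46 and 9.46 in WT, so that 1 Cbl-b-/- mouse exceeded the lowest WT mouse. Its difference was -0.30 ± 0.12 (SE, unadjusted limma p 0.0385, adjusted 0.749). Macrophages take up dying red cells and express Hmox1. Of 13 macrophage and monocyte markers, 1 (Vsig4) was higher in Cbl-b-/- skin and 0 were lower at an unadjusted limma p below 0.05. Over all rows 3.68% were higher and 2.87% lower. Of the 13, 6 were above 0 and 7 below. The median level of the list ran from 8.42 to 8.67 in Cbl-b-/- mice and from 8.01 to 8.95 in WT. WT replicate 1, where Hmox1 was highest among WT mice, also had the highest macrophage median, and WT replicate 3 had the lowest of both. Among Cbl-b-/- mice the order was reversed. Replicate 1 had the highest Hmox1 and the lowest macrophage median (8.42), and replicate 3 the lowest Hmox1 and the highest median (8.67). The part of macrophage content in the Hmox1 difference was not tested.

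Nqo1, a quinone reductase and a standard Nrf2 target, read 6.97, 6.40 and 6.04 in Cbl-b-/- skin and 6.46, 6.75 and 6.25 in WT. The groups overlapped fully and the difference was -0.01 ± 0.25 (log2, SE).

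Cytoglobin is a globin of fibroblasts and related stromal cells that binds oxygen and nitric oxide. Cygb read 8.80, 8.88 and 9.31 in Cbl-b-/- mice and 8.63, 8.36 and 8.15 in WT mice. All Cbl-b-/- values lay above the WT values, with Cbl-b-/- replicate 3 highest and WT replicate 3 lowest. The difference was 0.61 ± 0.18 (log2, SE; limma p 0.0125, adjusted 0.716). It kept an unadjusted p below 0.05 in all 14 alternative settings, but it fell under 1.5-fold when Cbl-b-/- replicate 3 (0.46) or WT replicate 3 (0.50) was left out. Of 11 dermal fibroblast markers, 0 reached an unadjusted limma p below 0.05 in either direction, and their median level was 9.76 to 10.33 in Cbl-b-/- and 10.06 to 10.27 in WT skin.

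Sod2, the manganese superoxide dismutase of the mitochondrial matrix, read 10.60, 10.57 and 10.17 in Cbl-b-/- mice and 10.98, 10.97 and 10.79 in WT. Every Cbl-b-/- mouse lay below every WT mouse, and the Cbl-b-/- replicate 3 was lowest. The means were 10.45 ± 0.24 and 10.91 ± 0.11 (SD, n = 3 each), and the difference of -0.46 ± 0.14 (SE; limma p 0.0132, adjusted 0.716) held an unadjusted p below 0.05 in all 14 settings. It was between -0.54 and -0.32 with any 1 array left out. The neutrophil median was 6.03 in Cbl-b-/- replicate 3, which had the lowest Sod2, and 8.77 in Cbl-b-/- replicate 2, where Sod2 read 10.57. It was 6.70 in Cbl-b-/- replicate 1, where Sod2 read 10.60, and 7.83, 7.24 and 7.28 in the 3 WT mice. Without Cbl-b-/- replicate 2 and WT replicate 3, an alternative chosen after seeing the data that leaves 2 mice per genotype, the Sod2 difference was -0.58. The part of cell content in the Sod2 difference was not tested.

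The cytosolic enzyme Sod1 did not share that direction: it read 10.43, 10.03 and 10.14 in Cbl-b-/- skin and 10.25, 10.11 and 9.99 in WT. Sod3, the extracellular form, read 8.30, 8.55 and 8.12 against 8.16, 8.36 and 7.76. Catalase (Cat), the peroxisomal enzyme that removes hydrogen peroxide, read 10.22, 9.53 and 9.93 against 10.06, 9.93 and 9.53. The genotypes overlapped for all 3 genes, whose differences were 0.08 ± 0.13, 0.23 ± 0.18 and 0.05 ± 0.21 (log2, SE).

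**Figure D2:**
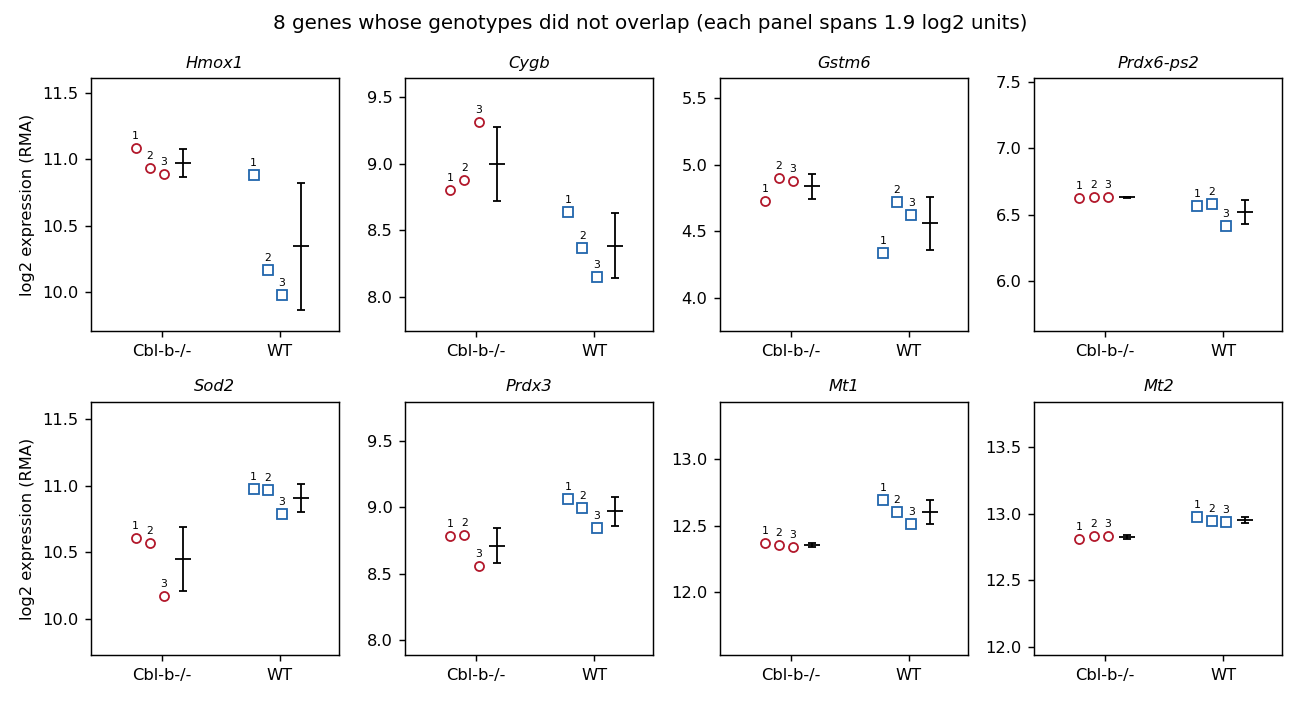
Log2 expression (RMA, vertical axes) on each array for the 8 genes whose genotypes did not overlap; red circles are Cbl-b-/- mice, blue squares WT mice, small digits the replicate numbers, and black marks the mean ± SD of 3 mice. The gap is widest for Sod2 (Cbl-b-/- up to 10.60, WT from 10.79), while for Hmox1 Cbl-b-/- replicate 3 at 10.89 and WT replicate 1 at 10.88 nearly meet.

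Metallothioneins are small cysteine-rich proteins that bind zinc and copper and scavenge radicals. Mt1 read 12.37, 12.35 and 12.34 in Cbl-b-/- mice and 12.69, 12.60 and 12.52 in WT mice. Mt2 read 12.81, 12.83 and 12.83 in Cbl-b-/- mice and 12.98, 12.94 and 12.94 in WT mice. Both genes were lower in all 3 Cbl-b-/- mice, and the Cbl-b-/- values were tight, with an SD of 0.017 for Mt1 and 0.014 for Mt2. The differences were small: -0.25 ± 0.08 for Mt1 (limma p 0.0186, adjusted 0.740) and -0.13 ± 0.07 for Mt2 (limma p 0.113, adjusted 0.771).

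Which test is used decides Mt2. The per-row test of the methods, an F test on each gene's own spread and no permutation, gave Mt2 an unadjusted p of 0.00117 and Mt1 one of 0.00894, while limma, which draws each spread toward that of all rows, called Mt1 alone. With a trended prior or cyclic loess limma gave Mt2 a p below 0.05 too. Mt1 lost its call without WT replicate 1 and without WT replicate 2, with differences from -0.29 to -0.20 over the 6 removals. Mean signals of Mt1 and Mt2 stood at the 99.8th and 99.9th percentiles of all rows, close to the highest row mean of 13.56, and whether the array signal was still proportional there was not tested.

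Peroxiredoxins reduce hydrogen peroxide with electrons from thioredoxin. Prdx3, the mitochondrial member, read 8.78, 8.79 and 8.56 in Cbl-b-/- mice and 9.06, 9.00 and 8.85 in WT mice. It was lower in all 3 Cbl-b-/- mice, as Sod2 was, and Cbl-b-/- replicate 3 was again lowest. The difference was -0.26 ± 0.10 (log2, SE; limma p 0.0439, adjusted 0.749). It stayed under a p of 0.05 in 9 of 14 settings; the call was lost without Cbl-b-/- replicate 1, Cbl-b-/- replicate 3, WT replicate 1 or WT replicate 2, and in the per-row test of the methods.

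The other peroxiredoxins differed less. Prdx1, Prdx2 and Prdx4 differed by -0.08, -0.09 and 0.01 (log2). Srxn1, which restores over-oxidised peroxiredoxins and is an Nrf2 target, read 8.79, 9.03 and 8.74 in Cbl-b-/- and 8.64, 8.86 and 8.48 in WT skin, a difference of 0.19 ± 0.13. The row of the pseudogene Prdx6-ps2 did not overlap between genotypes, at 6.63 on each Cbl-b-/- array and 6.56, 6.58 and 6.42 in WT, but its difference was only 0.11 ± 0.08 (limma p 0.206). Such a copy and its parent gene share sequence, so this value is uncertain as to gene.

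The mitochondrial partners of Prdx3 in the thioredoxin chain differed by little. Txn2, the mitochondrial thioredoxin, differed by -0.04 and Txnrd2, its reductase, by 0.07 (log2). In the cytosol, Txn1 differed by -0.01, and its reductase Txnrd1 read 8.47, 8.62 and 8.04 in Cbl-b-/- skin against 8.36, 8.73 and 8.59 in WT. Cbl-b-/- replicate 3 was the low array for Txnrd1, and the groups overlapped (-0.18 ± 0.17, log2, SE). Txnrd3, a reductase best known from testis, differed by -0.03. The largest and smallest differences of these 5 genes were 0.07 and -0.18, and 0 of them reached an unadjusted limma p below 0.05.

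**Figure D3:**
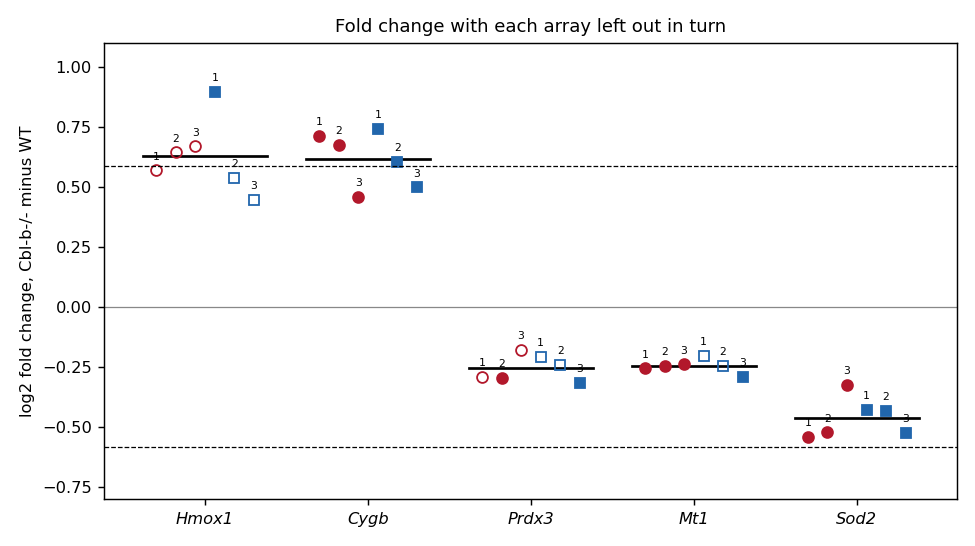
Log2 fold change (Cbl-b-/- minus WT, vertical axis) of the 5 genes with an unadjusted limma p below 0.05, recomputed with each array left out in turn; red circles leave out a Cbl-b-/- mouse and blue squares a WT mouse (digits are replicate numbers), filled symbols kept a p below 0.05, black lines are the values with all 6 arrays and dashed lines mark 1.5-fold. All 6 symbols are filled for Cygb and Sod2 and 1 of 6 for Hmox1.

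The sensor and the factor of this response differed by less than 1.2-fold. Nfe2l2 read 10.47, 10.59 and 10.45 in Cbl-b-/- mice and 10.28, 10.47 and 10.40 in WT, with a difference of 0.12 ± 0.09 (log2, SE). Keap1 read 7.36, 7.35 and 7.15 against 7.20, 7.30 and 6.96, with a difference of 0.13 ± 0.12. Osgin1, an oxidative stress gene that Nrf2 induces, differed by 0.24 ± 0.13 (limma p 0.101). All 3 had a higher mean in Cbl-b-/- skin, and all 3 overlapped between genotypes.

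Around them, 13 more genes of Nrf2 control were measured, and 2 had an unadjusted limma p below 0.05 (adjusted 0.749 for both). Maff, a small Maf protein that pairs with Nrf2, was higher, at 6.09, 5.97 and 6.03 against 5.87, 5.86 and 5.68 in WT (0.23 ± 0.09), and Bach1 was lower as given above. Of 31 other Nrf2 target genes, 0 were higher and 1 was lower by the same test. It was Cbr1, a carbonyl reductase, at 7.37, 7.13 and 7.22 against 7.51, 7.66 and 7.38 (-0.28 ± 0.11, adjusted limma p 0.749). The median over the 31 was 0.04 (log2), beside 0.02 over all rows. By that test 3.68% of all rows were higher and 2.87% lower.

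Members with the antioxidant response element core lay on both sides of 0. Of the 10 members printed above or, for Srxn1, with the core after the start, 3 were above 0 and 7 below, from -0.69 (Gsta3) to 0.19 (Srxn1), with a median of -0.05. None of them had an unadjusted limma p below 0.05. Of the 35 members with an entry and without the core, 17 were above 0 and 18 below, 3 of them with a p below 0.05, and the median was -0.01. Nqo1, a standard Nrf2 target, was among these 35, so the short window does not sort the members into Nrf2 targets and others.

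Glutathione is made by glutamate-cysteine ligase and glutathione synthetase and is kept reduced by glutathione reductase. Gclc, the catalytic subunit, read 8.87, 8.81 and 8.83 in Cbl-b-/- mice and 8.93, 8.74 and 9.32 in WT mice. Gclm, the modifier subunit, read 9.16, 9.06 and 9.12 against 9.09, 9.12 and 9.20. These 2 subunits overlapped between genotypes, and the highest value of each came from WT replicate 3.

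Gss, the synthetase, read 6.65, 6.47 and 6.24 in Cbl-b-/- skin against 6.49, 6.63 and 6.58 in WT. Gsr, the reductase, read 8.98, 9.53 and 8.43 against 9.01, 8.89 and 8.85, so that Cbl-b-/- mice held both its highest and its lowest value. The differences of the 4 genes lay between -0.16 (Gclc) and 0.07 (Gsr) on the log2 scale, and 0 had an unadjusted limma p below 0.05.

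Among 23 further genes of glutathione transfer, synthesis and breakdown outside the rule, 2 were higher and 1 lower at an unadjusted limma p below 0.05. Over all rows 3.68% were higher and 2.87% lower. Ggct, which acts on gamma-glutamyl dipeptides in glutathione breakdown, read 8.18, 8.27 and 8.34 in Cbl-b-/- and 8.04, 7.97 and 7.44 in WT skin (0.45 ± 0.17). Anpep, an aminopeptidase that can split cysteinylglycine, differed by 0.30 ± 0.10, and Lap3, a leucine aminopeptidase, by -0.52 ± 0.21. The 3 genes act on the breakdown side, and their adjusted limma p-values were between 0.743 and 0.749.

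Glutathione transferases join glutathione to electrophiles. Of 18 measured genes, 0 reached an unadjusted limma p below 0.05, 9 were above 0 and 9 below, and the median was 0.04 (log2). They also held the widest swings between single mice among all 53 genes. Gsta4, which detoxifies the lipid peroxidation product 4-hydroxynonenal, read 9.24, 10.92 and 7.37 in Cbl-b-/- mice and 9.26, 9.19 and 8.34 in WT. Both its extremes came from Cbl-b-/- mice, and the difference of 0.25 ± 0.84 (log2, SE) turned to -0.62 without Cbl-b-/- replicate 2 and grew to 1.16 without Cbl-b-/- replicate 3.

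Gsta3, another alpha-class enzyme, read 5.90, 5.59 and 6.27 in Cbl-b-/- mice and 8.20, 5.86 and 5.75 in WT. One array made this the largest fold change of the 53: the difference of -0.69 ± 0.65 turned to 0.11 without WT replicate 1. Gstz1, an enzyme of tyrosine breakdown, read 6.93, 6.04 and 6.80 against 7.56, 7.09 and 6.70, a difference of -0.53 ± 0.30 (limma p 0.128) that shrank to -0.25 without Cbl-b-/- replicate 2. These 3 genes spanned 3.55, 2.61 and 1.52 log2 units over the 6 arrays, whereas the median span was 0.537 over the members and 0.364 over all rows with 1 symbol.

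Cbl-b-/- replicate 2, which had the highest Gsta4, Gsr, Gsto1 and Gpx1 and the lowest Gstz1, Gstm1 and Gstm5, also had the highest neutrophil median and the lowest adipocyte median (7.74, against 8.12 to 9.70 on the other arrays). S100a8 and S100a9, abundant in neutrophils and in stressed keratinocytes, read 10.32 and 10.39 there and at most 9.02 and 9.18 elsewhere, while the granule genes Camp, Ngp and Ltf lay between 3.85 and 5.43 on all 6 arrays. The median of the keratinocyte markers was likewise highest on that array, at 10.84 against 10.10 to 10.71, but the list was split. Krt6a, Krt6b and Krt16 were highest there, at 10.77, 12.14 and 10.91, while Krt15 and Ivl were lowest there, at 8.31 and 8.55. The part of cell content in these swings was not tested. Of the probe sets that carry Gsta1 and Gsta2 together with 2 predicted genes, and so were no members, all 4 were also highest in Cbl-b-/- replicate 2 (6.87 to 7.57).

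**Figure D4:**
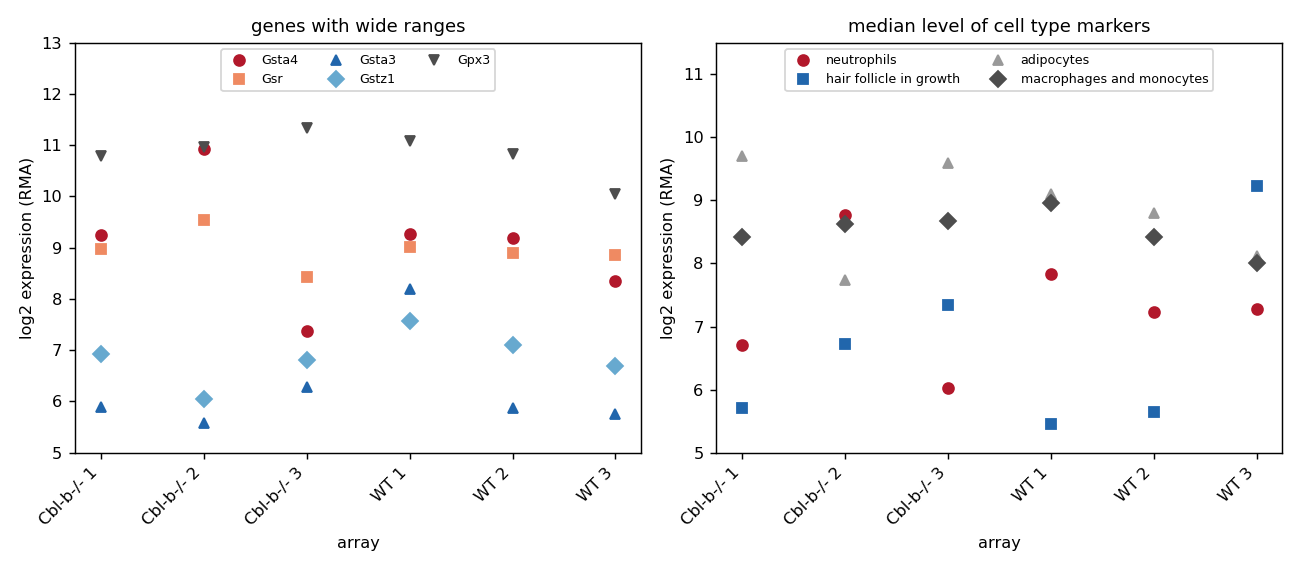
Log2 expression (RMA, vertical axes) on each of the 6 arrays (horizontal axis) of 5 members with wide ranges (left) and the median of 4 lists of cell type markers (right). Gsta4 and Gsr are highest and Gstz1 is lowest in Cbl-b-/- replicate 2, where the neutrophil median reaches 8.77 and the adipocyte median falls to 7.74; Gpx3 is lowest in WT replicate 3, where the hair follicle median reaches 9.23.

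Calls in the theta class of transferases depended on that same array. Gstt1, Gstt2 and Gstt3 differed by 0.25, 0.38 and 0.19 (log2) with all arrays. All 3 passed an unadjusted limma p of 0.05 without Cbl-b-/- replicate 2, at differences of 0.41, 0.52 and 0.35. Gstt4, the other measured theta gene, differed by -0.04 and had a p below 0.05 in 0 of 13 settings. Gstt2 had the largest positive difference of the 18 transferases, with a limma p of 0.0765. In the mu class, Gstm6 read 4.73, 4.90 and 4.88 in Cbl-b-/- mice and 4.34, 4.72 and 4.62 in WT mice, which did not overlap (0.28 ± 0.12, limma p 0.0584). The other transferases, from Gstm5 at -0.20 to Gstm1 at 0.19, overlapped between genotypes. Genes of the mu and pi classes resemble each other closely, so their probe sets can share signal.

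Glutathione peroxidases reduce peroxides at the expense of glutathione. None of the 8 reached an unadjusted limma p below 0.05. Gpx3, the secreted plasma enzyme, read 10.79, 10.96 and 11.33 in Cbl-b-/- mice and 11.07, 10.83 and 10.05 in WT mice. Its difference of 0.38 ± 0.28 (log2, SE) rested on WT replicate 3, without which it was 0.08. Gpx1, the main cytosolic enzyme, differed by 0.18, and Gpx4, which protects membranes from lipid peroxides, by -0.05. Gpx6 differed by 0.25 ± 0.11 (limma p 0.0537) at a low signal of 4.29 to 4.77.

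Across the members, no array of either genotype stood uniformly high or low. WT replicate 3 held the lowest value of 17 members (32.1%, against 21.2% of all rows with 1 symbol), and Cbl-b-/- replicate 1 held the lowest of only 1 (1.89%, against 8.59%). WT replicate 1 held the highest value of 12 members (22.6%, against 14.1% of rows with 1 symbol) and WT replicate 2 of 3 (5.66%, against 11.6%). The 3 Cbl-b-/- mice held the highest of 11, 10 and 11 (20.8%, 18.9% and 20.8%). These shares were near those of rows with 1 symbol, at 18.5%, 19.4% and 19.6%. The map of deviations by array shows these patterns gene by gene.

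**Figure D5:**
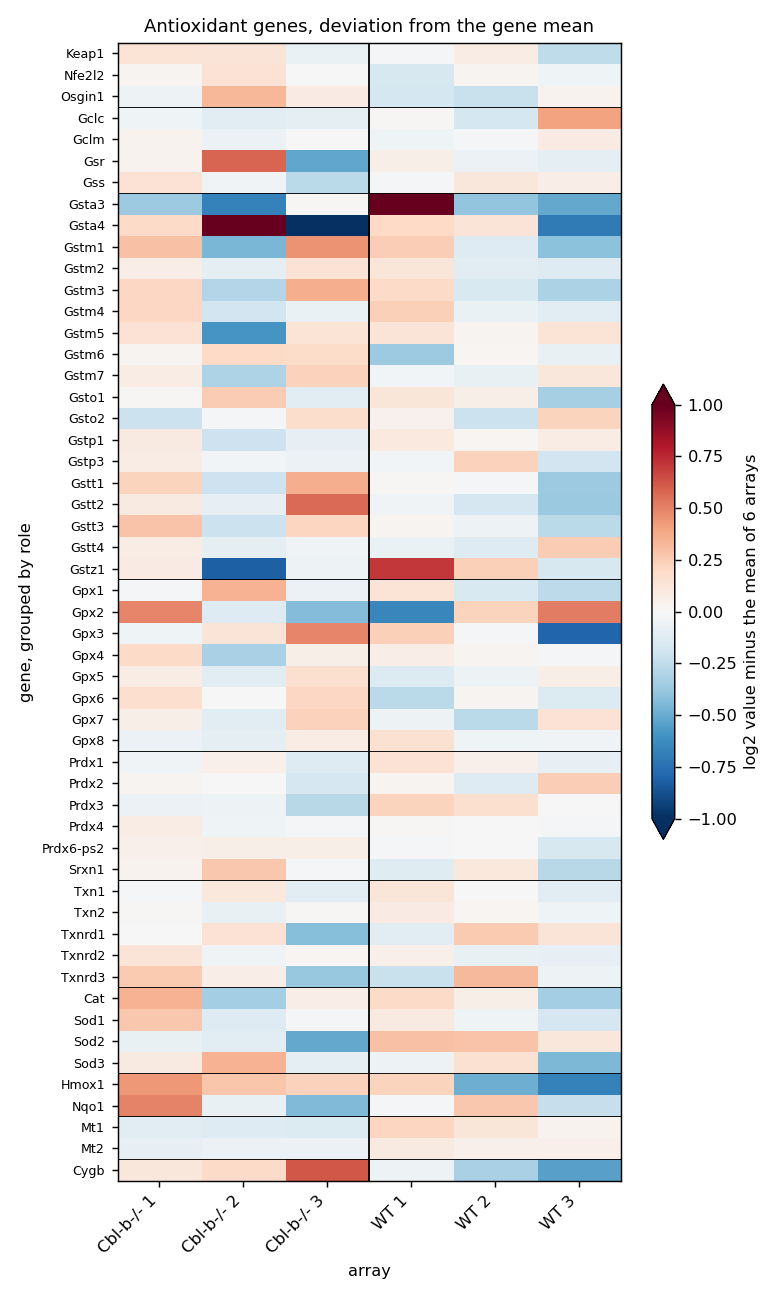
Deviation of each of the 53 genes (rows, grouped by role) on each array (columns) from that gene's mean over 6 arrays, in log2 units, red above and blue below, with the colour scale ending at 1 in either direction. Sod2, Prdx3, Mt1 and Mt2 are blue in all 3 Cbl-b-/- columns, Hmox1 and Cygb are red there, and Gsta3 and Gsta4 each show 1 array that stands far above the rest.

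The remaining oxidant genes, on lists chosen by function, gave few differences. The shares of all rows at an unadjusted limma p below 0.05 were 3.68% higher and 2.87% lower. Of 37 thioredoxin-related, methionine sulfoxide and selenium genes, 1 was higher and 1 lower at an unadjusted limma p below 0.05. They were Txndc17, a thioredoxin-like reductase (0.21 ± 0.09), and Selenok, a selenoprotein of the endoplasmic reticulum (-0.29 ± 0.12). Of 25 sestrins, globins and other scavengers, 1 was higher and 1 lower, and both passed 1.5-fold. Vnn1, a pantetheinase that raises cysteamine, read 6.64, 5.08 and 5.87 in Cbl-b-/- mice and 4.93, 5.04 and 4.98 in WT mice (0.88 ± 0.36). Pon1, a paraoxonase carried on lipoproteins, read 4.63, 4.78 and 4.80 against 6.57, 5.82 and 5.01 (-1.06 ± 0.36).

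Enzymes that make superoxide or hydrogen peroxide numbered 31, of which 22 were above 0, 1 was higher and 0 lower by the same test, with a median of 0.08 (log2). Most rows of the table were above 0 too, at 19834 of 35556 rows and 12720 of the 21789 rows with 1 symbol. The exception was Nox4, an oxidase of stromal and vascular cells that releases hydrogen peroxide. It read 6.28, 7.17 and 7.52 in Cbl-b-/- mice and 6.60, 5.95 and 5.75 in WT mice, with Cbl-b-/- replicate 1 below the highest WT mouse, and differed by 0.89 ± 0.36 (limma p 0.0436, adjusted 0.749).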

How the data were processed

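RNA of dorsal skin from 6 UVB-irradiated mice was hybridised to 6 arrays. The authors checked array controls in Affymetrix Expression Console and normalised by RMA in Partek Genomics Suite, version 6.5 in the submitters' processing notes; the genome build was not given in the sources used here. The deposited values are log2 expression per transcript cluster, and the number of arrays limits their precision. Rows were named through the platform annotation: 21789 of 35556 had 1 symbol, 1621 several and 12146 none. Groups came from the genotype label.

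The log2 values were used as deposited. Differences (Cbl-b-/- minus WT) were fitted over all rows with limma 3.58.1 (lmFit, eBayes) in R 4.3.3, with Benjamini-Hochberg adjustment over all rows. The methods' one-way analysis of variance per row was an alternative. The other settings were a trended robust prior, array weights, cyclic loess, a filter on dim rows, a replicate block, the mean of a gene's rows, other fold thresholds and each array left out. The limma script was tested on simulated data.

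Values of every array are given for members past a p of 0.05 in either test, past 1.5-fold or without overlap. They are also given for the core genes of the response and for the 3 widest ranges. From each other list, genes with a limma p below 0.05 are named. Slc48a1, the heme and iron genes named beside it and the marker genes were added after their values were seen. Members and lists were chosen with earlier results of these data known. Promoters were matched by gene to RefSeq sequences.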

Additional observations from a re-analysis of the deposited data

How the results depend on the processing

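With 3 mice per genotype the spread of each gene is poorly known, and no member passed an adjusted limma p of 0.05. Depth does not apply to arrays; the members of low signal, such as Gpx5, Gpx6 and Gstm6, lie near the bottom of the scale. No called member changed sign. Of the 14 settings, 29 members kept their sign in each in which they were measured and 24 turned at least once. The count of members past both study thresholds was 2. It was 1 with the methods' per-row test (Cygb) and 1 with array weights (Hmox1), and ran from 0 to 2 with 1 array left out, being 0 when Cbl-b-/- replicate 3 or WT replicate 3 was left out. It was 0 also without Cbl-b-/- replicate 2 and WT replicate 3 together, an alternative chosen after seeing the data, where Cygb kept a p below 0.05 at 0.56. A threshold of 1.2- or 1.3-fold gave 3. The count at an unadjusted p below 0.05 was 5, and 3 to 8 with 1 array left out, where 8 came without Cbl-b-/- replicate 2. The count without overlap was 8, and 11 to 15 with 1 array left out, where fewer values per group overlap less often by construction. With both arrays removed it was 26, which the same construction affects. Shares of all rows were not counted in any alternative setting. The counts given here for those settings therefore cannot be read as particular to the members. The median over the members lay between -0.03 and 0.07 throughout. Genotypes share replicate numbers. Same-numbered arrays correlated at 0.23, 0.09 and 0.25 in their deviations from the group means, and differently numbered arrays at -0.33 to 0.23. For each Cbl-b-/- array the same-numbered WT array gave the highest value. These correlations do not settle whether the numbers mark pairs, and the main fit did not use them. With the replicate block, 2 members passed both thresholds and 6 had a p below 0.05 (Gstm6 added). The filter on dim rows kept 41 of the 53 members. The cause of these shifts was not tested.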

Other observations

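The members Gpx4, Gstm3, Prdx1 and Prdx2 each had a further row of their own symbol, and both rows of each gene had the same sign and no unadjusted limma p below 0.05. For Gpx4 the 2 rows differed by -0.05 and -0.02 (log2, Cbl-b-/- minus WT), for Gstm3 by 0.18 and 0.11, for Prdx1 by -0.08 and -0.04 and for Prdx2 by -0.09 and -0.04. The 2 rows that carry Gstp1 and Gstp2 together differed by -0.02 each, beside -0.13 for the Gstp1 row of its own.

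Mast cell markers, which are no part of the antioxidant genes, were the marker list with the most differences: 5 of 10 were higher and 0 lower in Cbl-b-/- skin at an unadjusted limma p below 0.05, with a median log2 difference of 0.44. Over all rows 3.68% were higher and 2.87% lower by that test. Of the 10 markers, 9 were above 0 and 1, Kit, was below, at -0.27. After adjustment 0 of them passed a limma p of 0.05. The median level of the list was 6.82 to 7.14 in Cbl-b-/- mice and 6.61 to 6.93 in WT mice. Their part in the differences of Hmox1 and Cygb was not tested.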
